A study of Mus musculus with 28 samples.

Results

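The 26S proteasome is the protease that degrades ubiquitin-tagged proteins, and its constitutive subunits and activators were measured here as mRNA in mouse bone marrow-derived macrophages. Members were the protein-coding genes with a Psma, Psmb, Psmc, Psmd or Psme symbol followed by a number, without the inducible subunits Psmb8, Psmb9 and Psmb10. The symbols gave 40 genes among the 55487 gene identifiers, and 39 of them were among the 13631 genes that reached at least 1 TPM (a transcript share, scaled to the same sum in every library) in at least 4 of the 28 libraries. By role, 15 belonged to the 20S core (8 alpha and 7 beta subunits), 20 to the 19S regulatory particle (6 ATPases, 11 other subunits and 3 assembly chaperones) and 4 were activators. The gene left out by the filter was Psmb11, the thymus-specific beta subunit, which was listed at 0 in every library.

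All macrophages came from wild-type mice and were cultured for 48 h without added cytokine (M0), with interferon-γ (IFN-γ, 50 ng/mL) or with interleukin-10 (IL-10, 50 ng/mL). The study fed them CD4+ T cells killed with ATP and NAD+, either regulatory (Treg) or conventional (Tconv), stained with an anti-CD4 dye (BV421 or Ax647). Macrophages were then sorted by whether they had taken up Treg cells, Tconv cells or neither, and poly(A) RNA was sequenced. This gave 7 groups of 4 libraries: M0, and for each cytokine a non-phagocytic, a Tconv-phagocytic and a Treg-phagocytic group. The M0 labels name neither T cells nor uptake, so the M0 comparisons use the non-phagocytic groups. The labels do not say whether the 4 libraries of a group came from separate mice or cultures, so p-values measure only the spread between these libraries.

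The 20S core is a barrel of alpha and beta rings, and 3 of its beta subunits cut proteins: Psmb5 (chymotrypsin-like), Psmb6 (caspase-like) and Psmb7 (trypsin-like). The 19S particle caps the barrel, binds and deubiquitinates substrates through its non-ATPase subunits and unfolds them with its ring of Psmc ATPases. The activators bind the same barrel ends: Psme1 and Psme2 form PA28αβ, Psme3 forms the mostly nuclear PA28γ, and Psme4 is PA200. In antigen-presenting cells IFN-γ is known to induce PA28αβ and the immunoproteasome subunits Psmb8, Psmb9 and Psmb10, which replace the cutting subunits and alter the peptides made for MHC class I.

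The files hold TPM without counts, so sequencing depth is unknown. Between 14148 and 16295 genes were above 0 in the IFN-γ libraries and between 16942 and 18457 in the others. The median coefficient of variation of the members within a group was 3.85% to 4.83% in the M0 and IL-10 groups and 7.35% to 12.6% in the IFN-γ groups. Tests used TPM divided by a scaling factor per library, and the mean log2 factor was 0.16 in M0, 0.18, 0.09 and 0.09 in the IL-10 non-phagocytic, Tconv- and Treg-phagocytic groups, and -0.16, -0.11 and -0.24 in the matching IFN-γ groups. A gene with equal deposited TPM in M0 and IFN-γ therefore counts as higher in IFN-γ after scaling. Log2 differences below are after scaling, on log2(scaled TPM + 1), and TPM values are as deposited. All 7 macrophage markers (Adgre1, Cd68, Csf1r, Itgam, Lyz2, Mertk and Fcgr1) averaged at least 1 TPM in each group, and summed to 16300 to 21100 TPM. Lyz2 made up most of this sum (mean 16300 TPM in M0 and 15000 TPM in IFN-γ non-phagocytic macrophages). Mean Cd68 (2080 and 1360 TPM), Csf1r (637 and 407 TPM), Itgam, Adgre1 and Fcgr1 were also lower in IFN-γ there, and Mertk was not (20.5 and 21.5 TPM). The 10 T cell markers summed to 148 to 252 TPM in the M0 and IL-10 libraries and 354 to 599 TPM in the IFN-γ libraries, also in the non-phagocytic ones. Il7r made up most of the M0 sum (mean 159 TPM, and 96.0 TPM in IFN-γ non-phagocytic macrophages), whereas Cd3d went from 2.91 to 25.8 TPM, Cd3e from 2.2 to 21.7 TPM, Trac from 7.10 to 64.5 TPM and Cd2 from 4.11 to 40.5 TPM between those groups. Against M0, 9 of the 10 were called higher and 1 lower, with a median log2 difference of 3.02. The 5 stromal markers summed to 92.4 to 109 TPM in M0, 66.2 to 72.5 TPM in IL-10 and 2.49 to 5.29 TPM in IFN-γ non-phagocytic macrophages. The 5 neutrophil markers summed to 45.0 to 49.7, 30.7 to 35.6 and 51.2 to 68.0 TPM in the same order, with Ly6g at 0 in both cytokine groups, and the 4 dendritic markers to 0.20 to 0.34, 0.27 to 1.03 and 2.51 to 10.7 TPM, with Flt3 at 0 in IFN-γ and Clec9a at 5.65 TPM there. In these sorted but bulk samples more RNA per macrophage and a different share of cells cannot be told apart, and the part that RNA of these other cell types has in the results was not tested.

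Levels of the subunits differed widely even though each occurs in equal copies in the particle. Over the 28 libraries, mean TPM of the 14 core subunits other than Psma8 ranged from 47.2 for Psma2 to 318 for Psmb6, with a median of 106. The 17 subunits of the 19S particle other than chaperones had a median of 61.5 TPM and ranged from 34.4 for Psmd6 to 475 for Psmd8, a lid subunit. The next 19S subunit below Psmd8 was Psmd2, the base scaffold, at 136 TPM. The chaperones Psmd5, Psmd9 and Psmd10, which help assemble the 19S base and leave before the particle is complete, averaged 15.6 to 23.7 TPM. Psma8, the testis counterpart of Psma7, reached at most 4.58 TPM and passed the filter in 16 libraries.

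After IFN-γ most core subunits rose, 19S genes moved in both directions, and Psme2 and Psme1 had the largest log2 rise. Against M0, the non-phagocytic IFN-γ macrophages had 19 of the 39 members called higher and 7 called lower by limma at an adjusted p under 0.05, where 28.2% of all genes tested were called higher and 24.1% lower. In the core 11 members rose and none fell, 5 of the 19S genes rose and 7 fell, and 3 of the 4 activators rose. The median log2 difference was 0.47 in the core, -0.07 in the 19S genes and 0.71 in the activators, against 0.02 over all genes. Without scaling the same comparison called 13 members higher and 15 lower, with a median over all genes of -0.24. Of all 13631 genes it called 2560 higher and 5572 lower. Of the members called, 12 higher and 5 lower ones were also called the same way without scaling, after a correction for GC content and transcript length, and without any of the libraries in turn. The matching share of all called genes is not given here. T cell markers rose and stromal markers fell in the same comparison, by the values given above, and their part in the calls of the members was not tested.

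**Figure D1:**
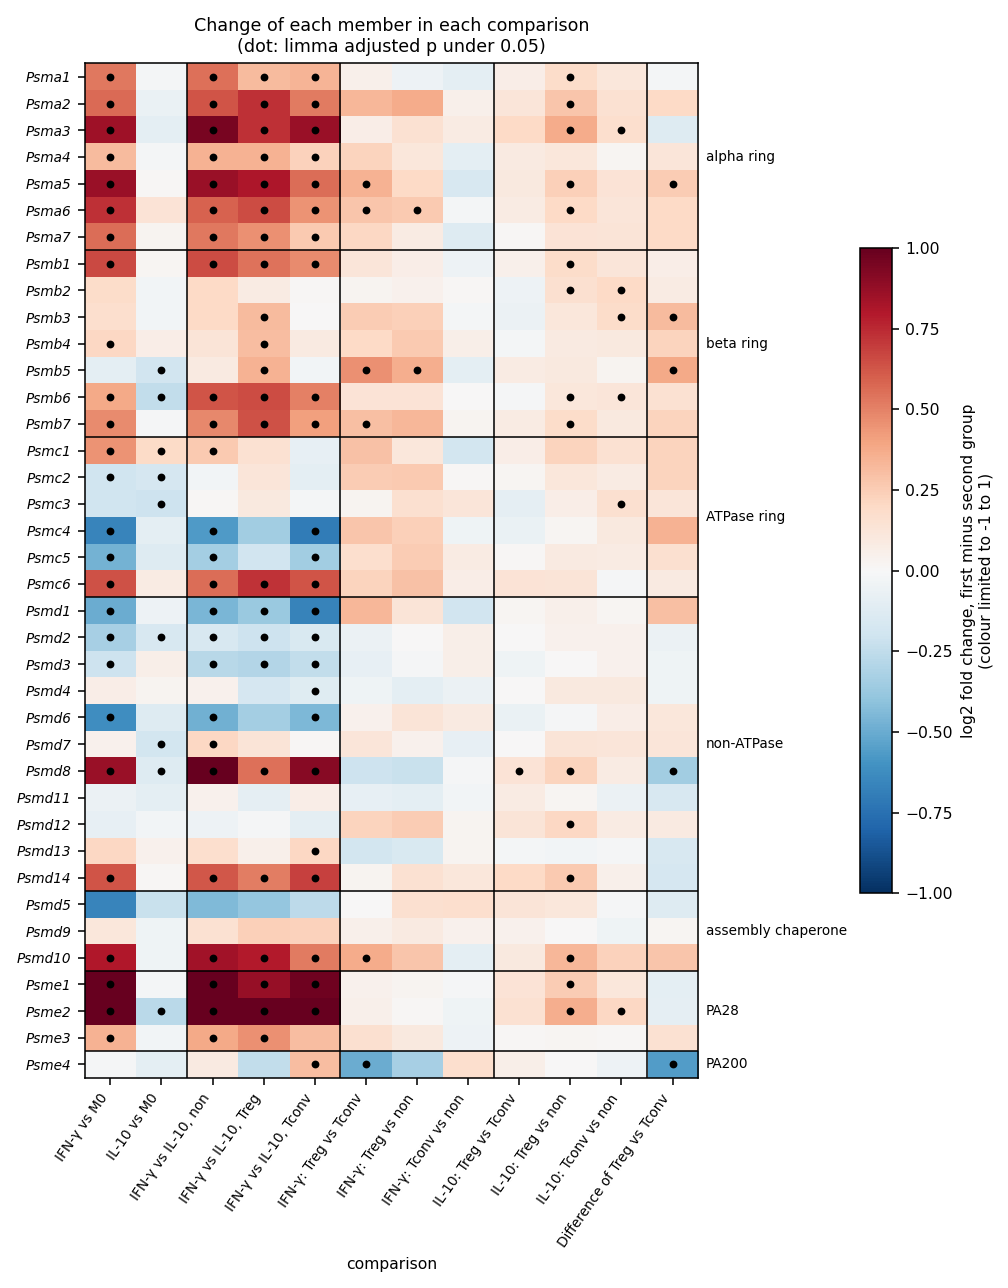
Log2 difference (colour) of 38 members in each of the 12 comparisons, by subunit role, without the barely expressed Psma8; a dot marks a limma adjusted p under 0.05. The 4 columns that set IFN-γ against M0 or IL-10 show red alpha-ring rows, 19S rows of both colours and the darkest red at Psme1 and Psme2.

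In the alpha ring 7 of 8 genes rose after IFN-γ. Psma5 was at 61.40, 64.71, 70.99 and 73.23 TPM in M0 and at 95.76, 95.82, 96.43 and 107.36 TPM in IFN-γ. No library overlapped between those groups, and the log2 difference was 0.86 (SE 0.0634, limma adjusted p = 7.24e-06). Psma3 was at 74.21, 81.51, 85.94 and 89.66 TPM in M0 and at 112.22, 115.76, 125.16 and 125.94 TPM in IFN-γ, again without overlap (log2 difference 0.85, SE 0.0638, limma adjusted p = 8.31e-06). The next alpha subunits were Psma6 at 0.73, Psma2 at 0.57, Psma7 at 0.56, Psma1 at 0.53 and Psma4 at 0.32. Psma1 and Psma4 were not called once GC content and length were corrected for, nor Psma4 without scaling. Psma8 did not pass (log2 difference -0.33, SE 0.344).

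In the beta ring 4 of 7 genes rose, and the 3 cutting subunits differed from each other. Psmb1, a structural beta subunit, led with a log2 difference of 0.66 (SE 0.0575, limma adjusted p = 2.06e-05), from 90.2 ± 3.6 TPM in M0 to 115 ± 7.30 TPM in IFN-γ (SD, n = 4). Psmb7 rose by 0.47 (SE 0.0583, limma adjusted p = 0.000171), from 85.57, 87.64, 88.09 and 88.29 TPM in M0 to 86.64, 98.36, 101.92 and 102.84 TPM in IFN-γ. Its deposited values overlap through the lowest IFN-γ library, and without scaling it was not called. The same holds for Psmb6, which was at 318.42, 326.94, 331.30 and 332.63 TPM in M0 and at 321.56, 338.99, 339.24 and 363.77 TPM in IFN-γ. Its log2 difference of 0.38 (SE 0.0455, limma adjusted p = 0.000142) became 0.06 without scaling (limma adjusted p = 0.258). Psmb4 (0.21) was called too, but not without scaling, after the GC and length correction or in every fit with a library left out. Psmb2 (0.18) and Psmb3 (0.17) did not pass.

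Psmb5 was the cutting subunit with lower deposited TPM in IFN-γ. It was at 200.93, 210.07, 213.34 and 214.26 TPM in M0 and at 150.26, 151.73, 153.99 and 168.84 TPM in IFN-γ, without overlap. After scaling the log2 difference was -0.10 (SE 0.0440) and did not pass (limma adjusted p = 0.086). It was -0.13 with median-of-ratios scaling (limma adjusted p = 0.0356), -0.42 without scaling (6.75e-05) and -0.33 once GC content and length were corrected for (0.000477). It was also called without IFN-γ library 3 (-0.13, limma adjusted p = 0.0191). Its sign was negative in each of these fits.

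Within the 19S particle, subunits of the same ring moved in opposite directions after IFN-γ. Of the 6 ATPases, Psmc6 (0.64) and Psmc1 (0.45) rose, whereas Psmc4 (-0.66), Psmc5 (-0.47) and Psmc2 (-0.20) fell, and Psmc3 (-0.20) did not pass. Psmc1 was not called without scaling, and its deposited TPM overlapped between the groups. Psmc4 was at 93.61, 96.10, 96.68 and 100.69 TPM in M0 and at 40.82, 47.40, 50.12 and 56.84 TPM in IFN-γ, so every IFN-γ library lay far below every M0 library (SE 0.0909, limma adjusted p = 0.000321). Psmc6 was at 56.45, 56.80, 60.09 and 62.35 TPM in M0 and at 59.23, 75.45, 78.29 and 84.11 TPM in IFN-γ, with overlap through 1 IFN-γ library (SE 0.107, limma adjusted p = 0.00102).

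Among the 11 non-ATPase subunits, Psmd8 and the deubiquitinase Psmd14 rose and Psmd6, Psmd1, Psmd2 and Psmd3 fell. Psmd8 was at 397.64, 417.03, 418.71 and 432.91 TPM in M0 and at 565.22, 600.09, 618.26 and 643.09 TPM in IFN-γ, the largest gain in TPM of any member (log2 difference 0.86, SE 0.0473, limma adjusted p = 1.22e-06). Psmd14, which removes ubiquitin chains as substrates enter, went from 40.8 ± 3.41 to 51.0 ± 5.28 TPM (log2 difference 0.63, SE 0.0871, limma adjusted p = 0.000332). Psmd6, a lid subunit, was at 44.50, 44.94, 45.67 and 45.77 TPM in M0 and at 19.57, 21.81, 25.23 and 27.05 TPM in IFN-γ (log2 difference -0.62, SE 0.0931, limma adjusted p = 0.000564). The large base subunits Psmd1 (-0.50) and Psmd2 (-0.33) and the lid subunit Psmd3 (-0.21) had lower deposited TPM in every IFN-γ than in every M0 library. Psmd2 and Psmd3 were not called once GC content and length were corrected for, nor Psmd3 in every fit with a library left out. The ubiquitin receptor Psmd4 (0.07) and Psmd7, Psmd11, Psmd12 and Psmd13 did not pass. Of these, all but Psmd13 also had lower deposited TPM in IFN-γ without overlap. Without scaling the median log2 difference over all genes was itself -0.24, and the share of all genes without overlap is not given here.

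The 3 chaperones differed. Psmd10, also called gankyrin, rose from 17.66, 18.09, 18.57 and 21.84 TPM to 23.30, 25.03, 27.78 and 33.18 TPM (log2 difference 0.80, SE 0.114, limma adjusted p = 0.000398). Psmd9 did not pass (0.11, SE 0.161). Psmd5 varied widely within the IFN-γ group. It was at 6.52, 6.87, 9.84 and 22.57 TPM in IFN-γ against 18.63 to 23.99 TPM in M0, and its log2 difference of -0.66 did not pass (SE 0.329, limma adjusted p = 0.121).

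PA28αβ had the largest log2 rise of all members. Psme2 was at 147.17, 157.98, 160.73 and 178.35 TPM in M0 and at 258.45, 297.12, 360.53 and 418.92 TPM in IFN-γ (log2 difference 1.35, SE 0.138, limma adjusted p = 5.42e-05). Psme1 was at 129.65, 131.10, 135.02 and 142.60 TPM in M0 and at 206.26, 223.10, 236.94 and 242.71 TPM in IFN-γ (log2 difference 1.07, SE 0.0549, limma adjusted p = 8.4e-07). For both genes the lowest IFN-γ library stood above the highest M0 library. Psme2 has a near-copy, Psme2b, listed at 17.71 to 22 TPM in M0 and 21.23 to 32.18 TPM in IFN-γ, so a small part of the Psme2 reads may be shared with it.

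The other activators differed less. Psme3 was at 42.56, 45.86, 45.94 and 47.12 TPM in M0 and at 44.97, 45.39, 45.92 and 49.11 TPM in IFN-γ, which overlap. Its log2 difference of 0.35 after scaling (SE 0.0566, limma adjusted p = 0.000864) was 0.03 without scaling (0.661). Psme4 was at 22.88 to 25.58 TPM in M0 and at 15.37 to 22.78 TPM in IFN-γ, lower in every deposited library. Its scaled log2 difference of -0.01 (SE 0.110) did not pass, and without scaling it was -0.32 and was called (limma adjusted p = 0.0344).

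**Figure D2:**
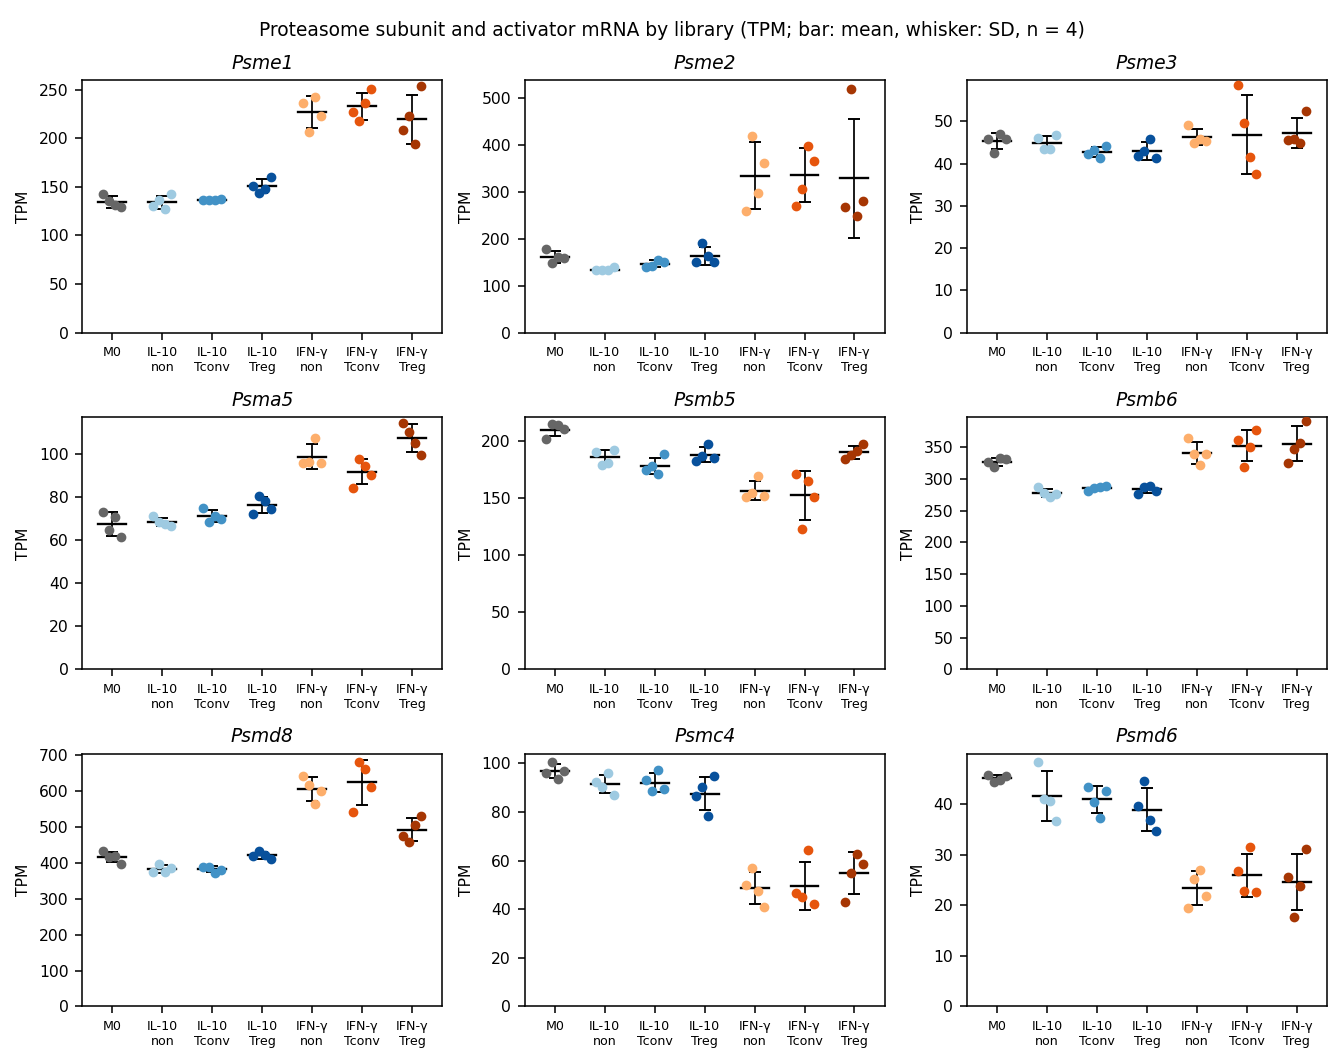
Deposited TPM (vertical axes, from 0) of 9 members in each of the 28 libraries (points), by group, with the group mean (bar) and SD (whisker, n = 4). All IFN-γ libraries of Psme1, Psme2, Psma5 and Psmd8 lie above all M0 and IL-10 libraries, those of Psmc4 and Psmd6 lie below them, and Psmb5 in IFN-γ is lower except after Treg uptake.

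Promoters of 33 of the 40 genes were in a RefSeq table of the GRCm38.p6 build, and the 250 bases before each annotated start were searched on both strands in 36 windows. Psma8, Psmb1, Psmb2, Psmb7, Psmc3, Psmd3 and Psmd7 had no entry. The windows below are shown because Psme2 and Psma3 rose after IFN-γ while Psmb5 did not. Capitals mark matches to any of the motifs searched: TTCNNNGAA (the interferon-γ activated site), GAAA-NN-GAAA (2 GAAA runs 2 bases apart, as in an interferon-stimulated response element), TGACNNNGC (the antioxidant response element) and CCAAT.
Psme2, chr14:55591102-55591351, minus strand: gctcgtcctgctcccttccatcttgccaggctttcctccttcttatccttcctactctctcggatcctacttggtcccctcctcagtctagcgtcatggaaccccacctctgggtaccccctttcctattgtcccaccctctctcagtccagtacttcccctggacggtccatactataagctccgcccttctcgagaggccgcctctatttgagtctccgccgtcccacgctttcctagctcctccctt
Psma3, chr12:70974373-70974622, plus strand: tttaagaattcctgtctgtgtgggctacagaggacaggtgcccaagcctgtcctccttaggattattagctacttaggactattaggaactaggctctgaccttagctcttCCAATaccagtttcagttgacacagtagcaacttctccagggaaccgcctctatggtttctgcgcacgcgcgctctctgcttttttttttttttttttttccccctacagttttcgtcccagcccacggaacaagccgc
Psmb5, chr14:54617996-54618245, minus strand: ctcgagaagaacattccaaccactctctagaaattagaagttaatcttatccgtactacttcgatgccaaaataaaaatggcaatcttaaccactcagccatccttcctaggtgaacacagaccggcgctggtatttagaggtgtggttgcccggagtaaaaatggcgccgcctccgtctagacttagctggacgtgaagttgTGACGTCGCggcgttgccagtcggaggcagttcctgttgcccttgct

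The Psme2 window holds none of the motifs, that of Psma3 holds 1 CCAAT, and that of Psmb5 holds 1 match to the antioxidant element, 47 to 39 bases before the start. TTCNNNGAA was in none of the 36 member windows, against 7.02% of the 32851 windows of all genes. The paired GAAA motif was in 3 (8.33%, against 2.98%), those of Psmb3, Psmd4 and Psmd9, and none of these genes was called after IFN-γ. TGACNNNGC was in 5 (13.9%, against 10.2%): Psmb5, Psmb6, Psmc6, Psmd9 and Psmd12. CCAAT was in 13 (36.1%, against 33.8%). Of the 12 genes with it that were tested, 9 were called higher and 1 lower. Of the 20 without it, 8 were called higher and 5 lower. Calls of all genes were not split by this motif, so these counts do not tie CCAAT to the rise. No matches of different motifs overlapped. A match describes letters in the window only, and 8 windows start over 100 bases from the gene's outermost start in GENCODE, among them that of Psme1.

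The split between core and 19S was also seen within each library, where no scaling factor enters. The mean log2(TPM + 1) of the 14 core subunits exceeded that of the 17 19S subunits by 0.44 to 0.50 in the 4 M0 libraries, by 0.47 to 0.52 in IL-10 non-phagocytic, 0.53 to 0.57 in IL-10 Tconv-phagocytic and 0.54 to 0.61 in IL-10 Treg-phagocytic macrophages. In the IFN-γ groups the excess was 0.90 to 0.98 (non-phagocytic), 0.88 to 0.93 (Tconv) and 0.99 to 1.10 (Treg). Every IFN-γ library thus lay above every M0 and IL-10 library. Summed TPM of the core was 1734 ± 26.7 in M0 and 1845 ± 21.3 in IFN-γ non-phagocytic macrophages, while the sum of the 19S subunits was 1646 ± 23.0 and 1552 ± 51.5 (SD, n = 4). The mean of Psme1 and Psme2 exceeded the core mean by 0.40 to 0.52 in M0 and by 1.04 to 1.32 in IFN-γ non-phagocytic macrophages.

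**Figure D3:**
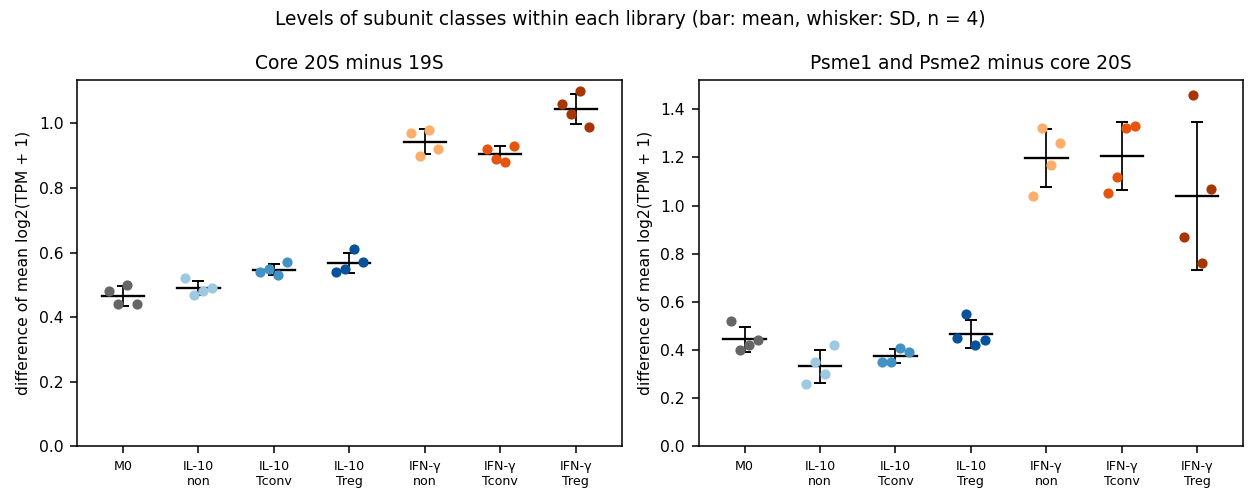
Difference between mean log2(TPM + 1) of subunit classes in each library (points), by group, with mean (bar) and SD (whisker, n = 4); left, 14 core minus 17 19S subunits, right, Psme1 and Psme2 minus the core. The M0 and IL-10 libraries lie between 0.44 and 0.61 on the left and the IFN-γ libraries between 0.88 and 1.10.

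Transcript length moved with these differences. Over 13613 genes the Spearman correlation of the IFN-γ against M0 difference with transcript length was -0.24, and over the 39 members it was -0.32, as a description across genes that are not independent. Genes under 1000 bases had a median log2 difference of 0.46 and those of 2500 to 5000 bases -0.09. The median transcript length was 1165 bases in the core and 1710 in the 19S genes. After the GC and length correction the core exceeded the 19S subunits by 0.54 to 0.59 in M0 and by 0.81 to 0.89, 0.79 to 0.84 and 0.89 to 0.98 in the IFN-γ non-phagocytic, Tconv- and Treg-phagocytic groups. The IFN-γ libraries still lay above all M0 libraries, by a smaller margin than before the correction. With that correction 8 core members were called higher and 1 lower against M0, and 6 of the 19S genes higher and 5 lower. Of 13613 genes 3836 were called higher and 2839 lower. Psmd8, Psmc4 and Psmd6 have like lengths of 1540, 1440 and 1387 bases, and log2 differences of 0.86, -0.66 and -0.62. They were picked from the 19S genes with the largest differences, and the part that length has in these differences was not tested.

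**Figure D4:**
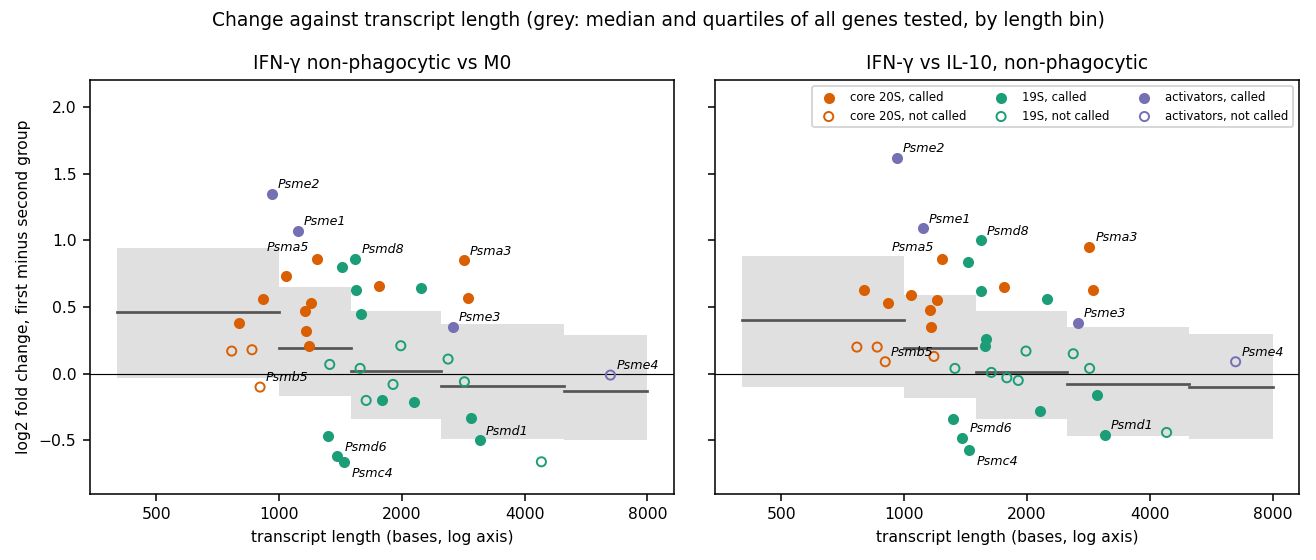
Log2 difference (vertical axes) of 38 members against transcript length (log axis) for IFN-γ against M0 and against IL-10 in non-phagocytic macrophages; filled points passed the limma test, and grey lines and bands are medians and quartiles of all genes by length bin. Psmd8 and Psmc4, which are of like length and were picked for their large differences, lie on opposite sides of the grey band.

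IL-10 changed few members, by small amounts, and mostly downward. Against M0, 1 member was called higher and 8 lower, where 13.7% of all genes were called higher and 12.8% lower. Psmb6 was at 271.61, 276.35, 277.45 and 287.55 TPM in IL-10, below every M0 library (log2 difference -0.25, SE 0.0246, limma adjusted p = 0.000115). Psmb5 was at 178.61, 180.53, 190.31 and 191.72 TPM, also below every M0 library (-0.19, SE 0.0339, limma adjusted p = 0.00326), and Psmb7 did not pass (-0.01, SE 0.0229). Psme2 had a log2 difference of -0.27 (SE 0.0509, limma adjusted p = 0.00437), to 132.12 to 139.01 TPM, while Psme1 (-0.02, SE 0.0407), Psme3 (-0.03) and Psme4 (-0.10) did not pass. Of the 19S genes 5 fell: Psmc3 (-0.21), Psmd7 (-0.18), Psmc2 (-0.17), Psmd2 (-0.16) and Psmd8 (-0.13). Psmc1 was the member called higher (0.19, limma adjusted p = 0.0423), and it was lost when single libraries were left out. No alpha subunit was called.

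IFN-γ was also set against IL-10 directly in the 3 uptake states, which share no libraries, and in each of them most called members were higher. Without uptake 19 members were called higher and 6 lower (27.4% and 23.2% of all genes), after Treg uptake 20 and 3 (19.7% and 16.6%), and after Tconv uptake 18 and 7 (28% and 23.7%). In all 3 states 16 members were called higher: the 7 alpha subunits Psma1 to Psma7, the beta subunits Psmb1, Psmb6 and Psmb7, and Psmc6, Psmd8, Psmd10, Psmd14, Psme1 and Psme2. Psmd1, Psmd2 and Psmd3 were called lower in all 3. With GC content and length corrected for, Psmd2 and Psmd3 were called in none of the 3 states. After Treg uptake Psmd1 was also lost without IL-10 Treg library Ax647-2 or BV421-2 (limma adjusted p = 0.0604 and 0.0554), and Psmd3 when any single IL-10 Treg library was left out, or IFN-γ Treg library Ax647-1 or Ax647-2. Over all genes, 13.9% were called higher and 10.8% lower in all 3. Of the 39 members, 31 had the same sign in all 3. Without scaling the calls were 13 higher and 13 lower without uptake, 11 and 11 after Treg uptake, and 13 and 13 after Tconv uptake. Medians over all genes were then -0.26, -0.26 and -0.15. Of all 13631 genes 2369, 1556 and 2809 were called higher and 5548, 4823 and 4684 lower, in the same order.

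Estimated sizes varied between the uptake states for some members. Of the genes named in this paragraph, the interaction term described below called Psmd8, Psmb5 and Psme4 between Treg and Tconv uptake, and not the others. Whether sizes differ between the states with and without uptake was not tested. Psme1 was at 136.02 to 137.10 TPM in IL-10 Tconv and 217.92 to 250.93 TPM in IFN-γ Tconv macrophages (log2 difference 0.97, SE 0.0450, limma adjusted p = 3.46e-07), and at 143.55 to 160.13 and 194.12 to 253.54 TPM after Treg uptake (0.87, SE 0.0909, limma adjusted p = 0.000141). Psme2 differed by 1.62 without uptake, 1.28 after Treg and 1.37 after Tconv uptake. Psma3 differed by 0.95, 0.73 and 0.86 and Psmd8 by 1.00, 0.55 and 0.91 in the same order. Psmd1 was at 54.98 to 59.45 TPM in IL-10 Treg and 29.63 to 41.52 TPM in IFN-γ Treg macrophages (-0.37, SE 0.0994, limma adjusted p = 0.0205), and at 55.24 to 58.50 and 30.13 to 30.61 TPM after Tconv uptake (-0.67, SE 0.0489, limma adjusted p = 5.16e-06). Psmc4, Psmc5 and Psmd6 were called lower without uptake (-0.57, -0.34 and -0.48) and after Tconv uptake (-0.70, -0.35 and -0.45). They did not pass after Treg uptake, with the same sign (-0.35, -0.19 and -0.34). Psmb5 was called after Treg uptake (0.35, SE 0.0453, limma adjusted p = 0.0005), though not without scaling, and did not pass in the other states. Psme3 passed without uptake (0.38) and after Treg uptake (0.46), not after Tconv uptake (0.31, SE 0.130), and Psme4 passed after Tconv uptake (0.31, limma adjusted p = 0.0226) and not otherwise.

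Psmb7, Psmc3, Psmd1 and Psmd13 share exon bases with the expressed opposite-strand genes Nek6, Slc39a13, Htr2b and Sirt3, and Psmd1 also with Gm21972 on its own strand. The library kit keeps strand, but whether counting used it is not given in the sources used here, so reads of these pairs may be shared.

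The balance between constitutive and inducible cutting subunits was taken as a ratio of TPM within each library, which needs no scaling. Psmb8 to Psmb5 was 1.16 to 1.21 in M0 and 1.97 to 2.40 in IFN-γ non-phagocytic macrophages. Psmb9 to Psmb6 was 0.163 to 0.179 and 0.329 to 0.379, and Psmb10 to Psmb7 was 0.958 to 1.14 and 1.51 to 1.93. In each case the groups did not overlap. The ratios were also higher in IL-10 than in M0 libraries, at 1.36 to 1.52, 0.209 to 0.245 and 1.28 to 1.48. Between phagocytic groups, Psmb8 to Psmb5 was 1.57 to 1.67 in IFN-γ Treg and 1.95 to 2.86 in IFN-γ Tconv macrophages, and Psmb9 to Psmb6 was 0.233 to 0.270 and 0.295 to 0.441, both without overlap. Psme1 to Psme3 was 2.78 to 3.17 in M0, 2.83 to 3.12 in IL-10 and 4.59 to 5.29 in IFN-γ non-phagocytic macrophages. Exact two-sided permutation tests of 4 against 4 libraries cannot go below p = 0.0286, which each ratio without overlap reached. Over the 16 ratio comparisons the smallest Benjamini-Hochberg adjusted value was 0.0508, so none passed.

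**Figure D5:**
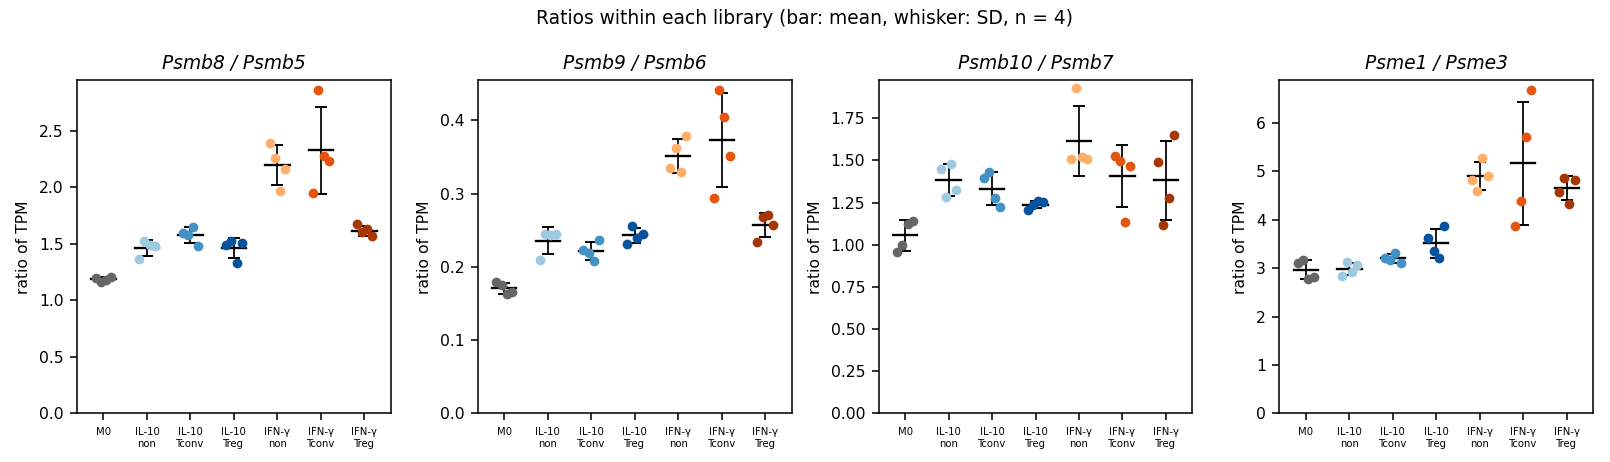
Ratio of TPM (vertical axes, from 0) of each inducible cutting subunit to the constitutive subunit it replaces, and of Psme1 to Psme3, in each library (points), with mean (bar) and SD (whisker, n = 4) by group. IFN-γ Treg libraries lie below all IFN-γ Tconv libraries for Psmb8 to Psmb5 and Psmb9 to Psmb6, and overlap with them for the other ratios.

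In IFN-γ macrophages 6 members differed between uptake of Treg and of Tconv cells. Of these, 5 were called higher and 1 lower, where 5.55% of all genes were called higher and 7.23% lower. Psmb5 was at 122.47, 150.87, 164.45 and 170.44 TPM after Tconv uptake and at 183.84, 187.29, 191.15 and 196.55 TPM after Treg uptake, without overlap (log2 difference 0.46, SE 0.102, limma adjusted p = 0.0237). Psma5 was at 84.34, 90.31, 94.35 and 97.83 TPM and at 99.50, 105.35, 110.06 and 114.45 TPM, also without overlap (0.35, SE 0.0583, limma adjusted p = 0.00715). Psmd10 (0.37), Psmb7 (0.30) and Psma6 (0.28) were the others called higher. Psme4 was at 20.23, 20.27, 23.68 and 25.14 TPM after Tconv and at 11.93, 13.77, 14.71 and 16.30 TPM after Treg uptake, without overlap (-0.50, SE 0.131, limma adjusted p = 0.0411). Psme1 (0.04, SE 0.0944), Psme2 (0.05, SE 0.237), Psme3 (0.16, SE 0.147) and Psmb6 (0.14, SE 0.0800) did not pass. Without scaling none was called higher and 3 lower, where 244 and 1367 of all genes were. With 1 library left out the number called was 1 without Tconv library Ax647-2, 2 without Tconv library Ax647-1, 3 without Tconv library BV421-2 or Treg library Ax647-1 or BV421-1, and 4 or 5 otherwise, and Psma5 was the only gene called each time. Summed macrophage markers were 16300 to 18700 TPM after Tconv and 20600 to 21100 TPM after Treg uptake. Lyz2 made up most of the sum, with group means of 15000 and 18200 TPM. Mean Adgre1, Cd68, Csf1r and Itgam were also higher after Treg uptake. Mertk (24.7 after Tconv and 15.2 TPM after Treg) and Fcgr1 (51.1 and 49.2 TPM) were lower. The part these differences have in the results was not tested.

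Against non-phagocytic IFN-γ macrophages, Treg uptake left 2 members higher and none lower (3.07% and 5.27% of all genes): Psmb5 (0.36, SE 0.0517, limma adjusted p = 0.00579), whose 4 Treg libraries all exceeded the non-phagocytic ones, and Psma6 (0.26, SE 0.0508, limma adjusted p = 0.0208). Without scaling 1 member was called higher and 1 lower, where 194 and 913 of all genes were. Psmb5 was called in every fit with 1 library left out, and 1 member was called without non-phagocytic library 1 or 4 or Treg library Ax647-1 or BV421-1. Psmb7 (0.33, SE 0.0898, limma adjusted p = 0.0635) and Psmd8 (-0.22, SE 0.0672, limma adjusted p = 0.0879) did not pass. After Tconv uptake no member was called by limma, and 0.00734% of all genes were called, a single gene, while 873 genes had an unadjusted p under 0.05.

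In IL-10 macrophages, uptake went with slightly higher levels of many members. Treg-phagocytic macrophages had 15 members called higher and none lower than non-phagocytic ones, where 7.2% of all genes were called higher and 4.2% lower. Of these, 9 were core subunits, 4 were 19S genes and 2 were Psme1 and Psme2. Psma3 was at 72.36, 78.17, 79.16 and 80.90 TPM without uptake and at 88.19, 94.42, 97.84 and 99.55 TPM after Treg uptake (0.37, SE 0.0467, limma adjusted p = 0.00207). Psme2 was at 132.12 to 139.01 TPM without and 149.60 to 190.97 TPM after Treg uptake (0.36, SE 0.0722, limma adjusted p = 0.0156), and Psme1 at 127.50 to 142.99 and 143.55 to 160.13 TPM (0.25, SE 0.0448, limma adjusted p = 0.00946). Psmd10 (0.33), Psma2 (0.28), Psmd14 (0.26), Psma5 (0.24), Psmd8 (0.22), Psmd12 (0.21) and Psma6 (0.20) followed. The cutting subunits Psmb7 (0.18) and Psmb6 (0.11) were among those called and Psmb5 was not (0.10, SE 0.0333). Of the 15, 7 kept their call with no scaling, with GC and length corrected for, and in each fit lacking 1 library: Psma3, Psma5, Psmd8, Psmd10, Psmd12, Psme1 and Psme2. The matching share of all called genes is not given here. With non-phagocytic library 3 left out, the number of members called was 8. In the same comparison all 10 T cell markers were called higher, with a median log2 difference of 0.90, and 4 of 5 stromal markers were called lower, and the part these have in the result was not tested.

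Tconv-phagocytic IL-10 macrophages had 6 members called higher and none lower (4.48% and 1.71% of all genes): Psme2 (0.21), Psmb2 (0.20), Psmb3 (0.18), Psma3 (0.17), Psmc3 (0.16) and Psmb6 (0.12). Psmb2 was at 79.26, 83.13, 83.17 and 83.19 TPM without and at 87.95, 88.13, 89.74 and 91.78 TPM after Tconv uptake (SE 0.0276, limma adjusted p = 0.0044), and was the member still called without scaling. Of 10 T cell markers 4 were called higher there. The 5 stromal markers summed to 66.2 to 72.5 TPM without uptake, 125 to 130 TPM after Tconv and 22.6 to 26.3 TPM after Treg uptake. The T cell markers summed to 148 to 158, 160 to 181 and 216 to 230 TPM in the same order. The part these have in the IL-10 results was not tested. The Treg and Tconv comparisons with non-phagocytic macrophages use the same 4 non-phagocytic libraries. Between Treg and Tconv uptake, 1 member was called, where 1.39% of all genes were called in either direction. This was Psmd8, at 372.04, 379.20, 387.69 and 390.26 TPM after Tconv and at 410.79, 419.30, 421.83 and 434.23 TPM after Treg uptake (0.14, SE 0.0249, limma adjusted p = 0.0334), and it was lost in 7 of the 8 fits that left out 1 library, all but the one without Treg library BV421-2.

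The difference between Treg and Tconv uptake was then compared between the cytokines with an interaction term over 16 libraries. By limma 3 members were called with a larger Treg-minus-Tconv difference in IFN-γ and 2 with a smaller one, together near the share of all genes (5.95% and 7.69%). These were Psmb5 (0.38, SE 0.112, limma adjusted p = 0.0334), Psmb3 (0.32, SE 0.0884, 0.025) and Psma5 (0.25, SE 0.0763, 0.0374), and on the other side Psme4 (-0.56, SE 0.144, 0.0154) and Psmd8 (-0.35, SE 0.0863, 0.0119). Psmd8 was called higher after Treg uptake in IL-10 macrophages. In IFN-γ macrophages its deposited values were 541.09, 613.20, 662.93 and 682.55 TPM after Tconv and 457.91, 474.91, 507.18 and 529.97 TPM after Treg uptake, without overlap. After scaling, that difference within IFN-γ did not pass (-0.21, SE 0.0801, limma adjusted p = 0.131). Psmd8 and Psme4 were called in every fit that left out 1 library, without scaling and after the GC and length correction. The 3 others were not called without scaling, which gave 0 higher and 4 lower (343 and 1444 of all genes). The number called was 8 without IFN-γ Treg library Ax647-2 and 2 without IL-10 Tconv library Ax647-2 or IL-10 Treg library BV421-2. It was 3 without IFN-γ Tconv library Ax647-2, IL-10 Tconv library BV421-1 or BV421-2, or IL-10 Treg library Ax647-1.

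Other genes of the pathway, from lists, moved as follows after IFN-γ without uptake, against M0. All 3 inducible cutting subunits rose: Psmb9 (1.4, limma adjusted p = 5.78e-07), Psmb10 (1.08, 4.28e-06) and Psmb8 (0.78, 1.15e-06). Of 4 other 19S components, Sem1, the smallest lid protein, rose (1.29, limma adjusted p = 9.18e-07), from 67.89 to 79.64 TPM in M0 to 132.46 to 153.27 TPM in IFN-γ, and so did the deubiquitinase Uchl5 (0.65), while the ubiquitin receptor Adrm1 fell (-0.45). Of 5 assembly factors tested 2 rose, led by Pomp, the core maturation factor (1.39, limma adjusted p = 1.94e-05), which went from 88.74 to 111.19 TPM in M0 to 162.62 to 242.98 TPM in IFN-γ. Of 6 inhibitors and adaptors 4 rose and 1 fell, with Zfand5, a proteasome-activating zinc finger protein, at 1.25 and the ubiquitin ligase Ube3c at -0.96. Of 4 genes of transcriptional control, Nfe2l1, which induces proteasome genes when the proteasome is impaired, fell (log2 difference -0.80, limma adjusted p = 1.95e-06), from 376.27 to 390.16 TPM to 164.68 to 192.80 TPM, as did Ddi2, the protease that activates its product (-0.38), and Nfe2l2 rose (0.16). Of 11 ubiquitin and shuttling genes 4 rose and 7 fell, with Rps27a, a ubiquitin fusion gene, at 1.17 and the shuttle factor Ubqln2 at -0.84.

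Against M0, IL-10 raised the 3 inducible cutting subunits less, Psmb10 by 0.38, Psmb9 by 0.21 and Psmb8 by 0.11, and no assembly factor was called. In IFN-γ macrophages none of the inducible subunits and none of the assembly factors was called between Treg and Tconv uptake, while Zfand5 fell (-0.47, limma adjusted p = 0.009) and Sem1 rose (0.33, limma adjusted p = 0.0182). The interaction term called Psmb9 (-0.50, limma adjusted p = 0.0243), Zfand5 (-0.70, limma adjusted p = 0.000214) and Ecpas, a proteasome adaptor (-0.84, limma adjusted p = 0.0213). After Treg uptake in IL-10 macrophages Pomp rose by 0.41 (limma adjusted p = 0.00651) and Sem1 by 0.24 (limma adjusted p = 0.0434) against non-phagocytic ones.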

How the data were processed

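Gene-level TPM of 28 libraries, with 2 decimals for 55487 Ensembl gene identifiers, were used as the authors deposited them. The submitters' processing notes name STAR, RSEM and mm10, without roles or versions, and the gene annotation is not given in the sources used here. Libraries were made from poly(A) RNA with a directional kit, per the labels' protocols. Groups follow the labels' titles. Symbols, lengths and GC content came from GENCODE vM21 and promoters from RefSeq (GRCm38.p6).

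TPM were divided by a trimmed-mean scaling factor per library (30% of ratios and 5% of levels trimmed at each end), and log2(value + 1) was fitted with limma 3.58.1 (lmFit, eBayes with trend, R 4.3.3) over the 2 groups compared (4 groups for the interaction), with Benjamini-Hochberg adjustment over 13631 genes and a threshold of 0.05. The fit was tested on simulated data. Log2 differences with a pseudocount understate changes of low genes. No 2 libraries were identical. Named were the cutting subunits, the activators and the 3 called members with the largest rise and fall per comparison. Other members are named to account for the class, and pathway genes only where called, at most 3 per list. Members and lists were chosen with earlier results of these data known. Alternatives were all 28 libraries in one fit, a variance weight per group, median-of-ratios or no scaling, a pseudocount of 0.1, no filter, a GC and length correction (splines with 5 degrees of freedom), a replicate block and leaving out each library. For all 8 Treg-phagocytic libraries the dye in the title and in the library name disagree, and titles are used here.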

Additional observations from a re-analysis of the deposited data

Results flagged for a closer look

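Among the cutting subunits and activators, 49 sets of 4 libraries were tested for a library far from the other 3, and 3 stood apart, where chance marks about 1 in 20. Psme2 was at 517.36 TPM in IFN-γ Treg-phagocytic library Ax647-2, against 248.28 to 280.90 TPM in the others, while its near-copy Psme2b was at 24.93 TPM there. Psme2 was at 139.01 TPM in IL-10 non-phagocytic library 4, against 132.12 to 132.93 TPM. Psme3 was at 52.47 TPM in IFN-γ Treg-phagocytic library BV421-2, against 44.87 to 45.86 TPM.

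Between the cytokines 5 members differed in their Treg-minus-Tconv difference by limma's interaction term: Psmb5 (0.38), Psmb3 (0.32), Psma5 (0.25), Psmd8 (-0.35) and Psme4 (-0.56) on the log2 scale. Of all genes, 5.95% were called with a larger and 7.69% with a smaller difference, so the number of members called is near the share of all genes. Psmb5, Psmb3 and Psma5 lost their call without scaling, after the GC and length correction and in some fits with a library left out. Psmb5 was at 171.03 to 187.82 TPM in IL-10 Tconv and 182.23 to 196.83 TPM in IL-10 Treg libraries, and Psme4 at 19.31 to 21.91 and 20.15 to 22.32 TPM, both with overlap.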

How the results depend on the processing

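Counts below are members called of 39. Keeping all 28 libraries in one fit gave 3 for IL-10 against M0. For IFN-γ Treg against Tconv and Treg against non-phagocytic it gave 14 each. It gave 0 for IL-10 Treg against Tconv, 6 for IL-10 Treg and 0 for IL-10 Tconv against non-phagocytic. Of all 13631 genes this fit called 1792, 4465, 3882, 107, 653 and 261 in the same order. Of simulated unchanged genes it called 354, 58 and 6 for IFN-γ Treg against Tconv, IFN-γ against M0 and IL-10 Treg against Tconv. The fit of the compared groups called 15, 17 and 13. Of 200 genes simulated with a log2 change of 1, it recovered 89, 139 and 172 in that order. The fit of all 28 libraries recovered 152, 157 and 162. In the fit of the compared groups, unchanged genes were thus a larger share of the calls than the adjusted p threshold aims at. A member that did not pass in IFN-γ Treg against Tconv may still differ. A variance weight per group gave 2 for IL-10 Treg against Tconv and 10 for IL-10 Tconv against non-phagocytic (367 and 1270 of all genes). Without scaling the counts were 3 for IFN-γ Treg against Tconv, 7 for IL-10 Treg and 1 for IL-10 Tconv against non-phagocytic. Of all genes 1611, 2097 and 1135 were called in these. Psmb5 in IFN-γ against IL-10 without uptake turned from 0.09 to -0.25 without scaling (limma adjusted p = 0.00207). Without the filter the counts were 2, 0 and 8 for Treg against Tconv in IFN-γ and IL-10 and for IL-10 Treg against non-phagocytic. Of the 26980 genes then tested 1081, 166 and 1067 were called. The GC and length correction gave 2 for IFN-γ Treg against Tconv, 9 for IL-10 Treg against non-phagocytic and 2 for the interaction. Of 13613 genes 1482, 1255 and 1664 were called.

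The replicate numbers did not pair the libraries: correlations of deviations of same-numbered libraries were -0.067 to 0.085. A replicate block gave 1 (by titles) and 2 (by library names) for IFN-γ Treg against Tconv. It gave 0 and 0 for IL-10 Treg against Tconv and 2 and 2 for the interaction. For IFN-γ Treg, IL-10 Treg and IL-10 Tconv against non-phagocytic it gave 1, 8 and 2. Of all genes the block called 997 and 1031, 83 and 63, 1568 and 1552, then 454, 814 and 324, in that order. With the block and the GC and length correction together the member counts were 0, 0, 1, 0, 4 and 1. IFN-γ against IL-10 after Treg uptake had 15. Of 13613 genes 1058, 82, 1392, 470, 802, 393 and 3561 were then called. BV421 libraries alone and Ax647 libraries alone, chosen after seeing the data, called 0 in both Treg against Tconv comparisons. With 2 libraries a side these fits called 0 and 0 of all 13631 genes in IFN-γ and 3 and 0 in IL-10, so they say nothing about the members.

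Leaving out each library gave 24 to 27 for IFN-γ and 7 to 10 for IL-10 against M0, 23 to 26, 18 to 23 and 22 to 25 for IFN-γ against IL-10 without uptake, after Treg and after Tconv uptake, 1 to 5, 1 to 3 and 0 for IFN-γ Treg against Tconv, Treg and Tconv against non-phagocytic, 0 to 1, 8 to 14 and 4 to 7 for the same in IL-10, and 2 to 8 for the interaction. Numbers of all genes called with a library left out are not given here. These ranges, and the matching counts in the sections above, thus do not set the members apart from other genes. Of 2062 single-gene values under all alternatives, 192 lost and 20 gained a call, 1 reversed and the others kept their call or lack of one. Depth is unknown, so precision rests on 4 libraries per group.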
